A study of Macaca mulatta with 23 samples.

Results

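The change after treatment that both arms of the study shared was measured in effector memory CD8+ T cells (CD8+ TEM) sorted from the blood of rhesus macaques. One arm received an anti-IL15 Ab and the other an IgG1 Control Ab, and the labels call the times Post Treatment and Pre Treatment. The comparison used the 22 arrays of the 11 animals measured at both times, out of 23 arrays of 12 animals: 5 animals of the anti-IL-15 arm and 6 of the IgG1 arm. The remaining array is from an anti-IL-15 animal with no earlier array and was followed separately. For each gene the within-animal log2 change, after minus before treatment, was averaged over both arms with equal weight, so that a positive change means a higher level after treatment. All animals of the arms received an antibody between the samples, so time and antibody administration as such cannot be told apart, and the sources used here do not give the interval, the dose or the animals' age.

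Effector memory CD8+ T cells are antigen-experienced cells that circulate through blood and tissues and carry granules of perforin and granzymes for killing infected cells. IL-15 is a cytokine of the common gamma chain family, read by these cells mainly through IL2RB and IL2RG, which signal through JAK kinases and STAT5. It is known for keeping memory CD8+ T cells and natural killer (NK) cells alive and dividing, in part through BCL2, a protein that blocks the mitochondrial route to cell death.

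The markers of the labelled cell type were read only in part by this array, whose probes were designed for human transcripts and can miss macaque ones. CD3D, CD3G and CD8A of the T-cell receptor and co-receptor, and PRF1, GZMB, NKG7 and CCL5 of cytotoxic cells, were detected on all 23 arrays, whereas the probes of CD3E and CD8B were detected on at most 1 and 9 arrays. CCR7, which marks naive and central memory cells and is low on TEM, was detected on 3 arrays, and LEF1, a transcription factor of the same cells, on 17. CD4 and the platelet gene PF4 were detected on 0 arrays, the B-cell gene MS4A1 on 11 and LYZ of myeloid cells on 8. CD14 of monocytes and HBB of red cells were detected on all 23, with median levels of 6.26 and 11.81 on the log2 scale. Between 11260 and 14130 probes were detected per array.

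The sort itself yielded fewer cells after treatment. Anti-IL-15 animals gave 20000 to 109000 cells (median 42000) after treatment, against 112000 to 274000 (median 259000) before it. IgG1 animals gave 66000 to 259557 cells (median 101500) after treatment, against 150000 to 500000 (median 296500) before it. The number was lower after treatment in 9 of 11 animals, by 1.64 on the log2 scale or 3.12-fold on average over the arms (exact two-sided sign-flip permutation test, p = 0.00586, adjusted over 5 array and sample measures p = 0.00977). The change was -2.07 ± 0.742 in the anti-IL-15 arm (SD, n = 5) and -1.21 ± 1.52 in the IgG1 arm (SD, n = 6), where animals 5 and 6 did not give fewer cells. The median signal of an array was lower after treatment in 10 animals and tied in 1 (mean change -2.88 intensity units, exact permutation p = 0.00195, adjusted p = 0.00488). A probe of 28S ribosomal RNA changed by -3.62 to 4.28 on the log2 scale, with no shared direction (mean 1.10, exact permutation p = 0.243). It was higher after treatment by 3.66 to 4.28 in 5 animals, numbers 1, 2 and 5 of the anti-IL-15 arm and 1 and 4 of the IgG1 arm. In the other 6 its change ran from -3.62 to 0.14. The smallest p this exact test can give is 9.8e-04. Equal RNA mass was amplified from every sample, so each level is a share of the RNA put in, and fewer cells of a type cannot be told apart from less RNA per cell.

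Of 9190 genes tested, 651 changed with time in the average over both arms, at a Benjamini-Hochberg adjusted p under 0.05 in limma with each animal as a block; these are the called genes below. They made up 7.08% of the genes, with 271 higher after treatment (2.95%) and 380 lower (4.13%). Scaling each array by its 75th percentile in place of quantile normalisation gave 231 higher and 646 lower, with a median change over all genes of -0.07, against -0.04 under quantile normalisation. The calls were moderate in size, with a median change of 0.58 among the rises and -0.59 among the falls, and 29 genes reached 2-fold, 15 higher and 14 lower. Called genes were the brighter ones, with a median level of 7.98 for rises and 7.79 for falls on the log2 scale, against 5.96 for all genes tested.

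The shared change was carried by both arms. Of the 651 genes, 646 had the same sign in both, 269 higher and 377 lower, although the averaging itself favours this. Called rises had a median change of 0.61 in the anti-IL-15 arm and 0.59 in the IgG1 arm, and called falls of -0.59 and -0.60. All 11 animals moved the same way for 93 called genes, 42 higher and 51 lower, and 10 animals did for a further 269. Among all genes tested, 110 moved the same way in all 11 animals and 61.8% had the same sign in both arms.

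Each arm alone gave far fewer calls: 77 genes in the anti-IL-15 arm (0.838%) and 202 in the IgG1 arm (2.20%). Of the 651 genes of the shared change, 450 (69.1%) were called in neither arm alone. Since the arms hold different animals, the calls of one could be followed in the other. Of 42 genes higher in the anti-IL-15 arm, 35 (83.3%) were also above 0 in the IgG1 arm, where 44.9% of all genes were. Of 35 lower in the anti-IL-15 arm, 29 (82.9%) were below 0 in the IgG1 arm, against 55.1% of all genes. In the other direction, 52 of 66 IgG1 rises (78.8%) and 110 of 136 IgG1 falls (80.9%) had the same sign in the anti-IL-15 arm, where 42.4% and 57.6% of all genes had those signs. The followed changes were smaller, with medians of 0.31 and -0.33 in the IgG1 arm for genes whose medians in the anti-IL-15 arm were 1.08 and -1.08.

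Taken separately, both arms called 6 genes with the same sign, which was 7.79% of the anti-IL-15 calls and 2.97% of the IgG1 calls. They were the histone H4 genes H4C12 and H4C3 and a probe annotated to the microRNA gene MIR761 among the rises, and CX3CR1, SERPINA1 and TXNIP among the falls. MIR761 lies outside the rule for named genes and was chosen after its values were seen, and whether its human-design probe reads the macaque transcript is not known. HLA-DRA, a chain of the antigen-presenting molecule HLA-DR, was called in both with opposite signs, 1.13 in the anti-IL-15 arm and -0.97 in the IgG1 arm. It was the only gene of the 9190 whose change differed between the arms (difference 2.10, limma adjusted p = 0.00632), and its average over the arms was 0.08. None of the 651 called genes had a called difference between the arms in limma, though 15.4% of them had an unadjusted p under 0.05 for it, against 9.67% of all genes.

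**Figure D1:**
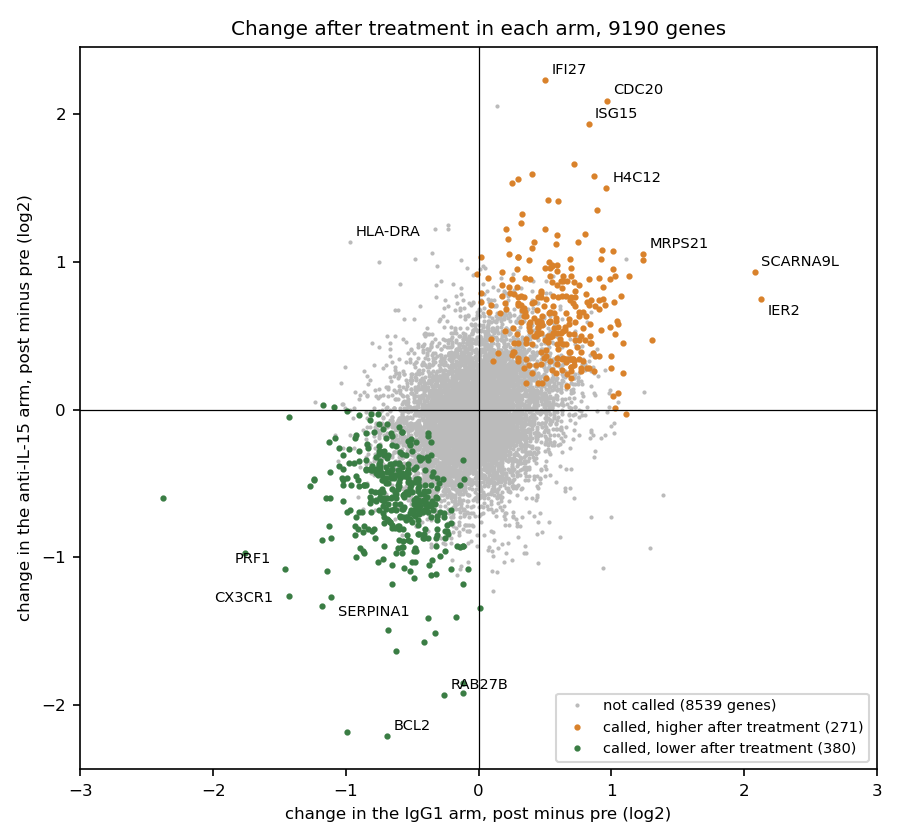
Change after treatment in the IgG1 arm (x axis, log2, 6 animals) and in the anti-IL-15 arm (y axis, log2, 5 animals) for the 9190 genes, with called genes in colour. The 271 called rises lie mostly in the upper right and the 380 called falls in the lower left, while HLA-DRA lies at 1.13 in the anti-IL-15 arm and -0.97 in the IgG1 arm.

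The strength of the shared change differed between animals. When the genes were called from the other 10 animals, the left-out animal moved in the called direction for 95.7%, 88.2%, 73.0%, 85.9% and 45.2% of them in anti-IL-15 animals 1, 2, 4, 5 and 6. The shares were 95.8%, 80.6%, 54.8%, 94.7%, 79.9% and 58.8% in IgG1 animals 1 to 6. The share over all genes was close to this in the 3 lowest animals, at 48.5% in anti-IL-15 animal 6, 47.9% in IgG1 animal 3 and 53.0% in IgG1 animal 6. In anti-IL-15 animals 1, 2, 4 and 5 the share over all genes was 65.9%, 63.1%, 54.9% and 63.0%. In IgG1 animals 1, 2, 4 and 5 this share was 69.6%, 61.0%, 67.6% and 60.4%. The number of called genes was 163 without anti-IL-15 animal 1 and 191 without IgG1 animal 1, but 938 without anti-IL-15 animal 6 and 889 without IgG1 animal 3. It was 283 without IgG1 animal 4, 371 without IgG1 animal 2, and 263 without either anti-IL-15 animal 2 or 5.

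The size of the shared change went along with the 28S signal and with the cell number. In the 5 animals whose 28S signal was higher by over 2, the called rises and falls had medians of 0.87 and -0.88. In the other 6 animals they had medians of 0.39 and -0.37, and all 651 genes had the same sign in both sets of animals, whose values had entered the calls. A fit on those 6 animals alone called 6 genes (947 at an unadjusted p under 0.05), of which ISG15 and IFI27 were higher and BCL2, CX3CR1, CPNE8 and the small nucleolar RNA SNORD21 lower. CPNE8 (-1.32) and SNORD21 (-1.27) lie outside the rule for named genes and were named after their values were seen, and over all 11 animals SNORD21 did not pass (-0.62, limma adjusted p = 0.101). In the 2 IgG1 animals with no fewer cells, 588 of the 651 genes had the shared direction, with medians of 0.31 and -0.31. The values of these animals had also entered the calls. When left out, IgG1 animals 5 and 6 followed 79.9% and 58.8% of the calls, against 60.4% and 53.0% of all genes. Without both animals, 253 genes were called higher and 372 lower. With the 28S signal as a covariate, 310 genes were called, and with the log2 cell number as a covariate, 0 genes were called in limma, with 417 at an unadjusted p under 0.05; 593 of the 651 kept their sign in that fit. The part of RNA composition and cell yield in the gene changes below was not tested.

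**Figure D2:**
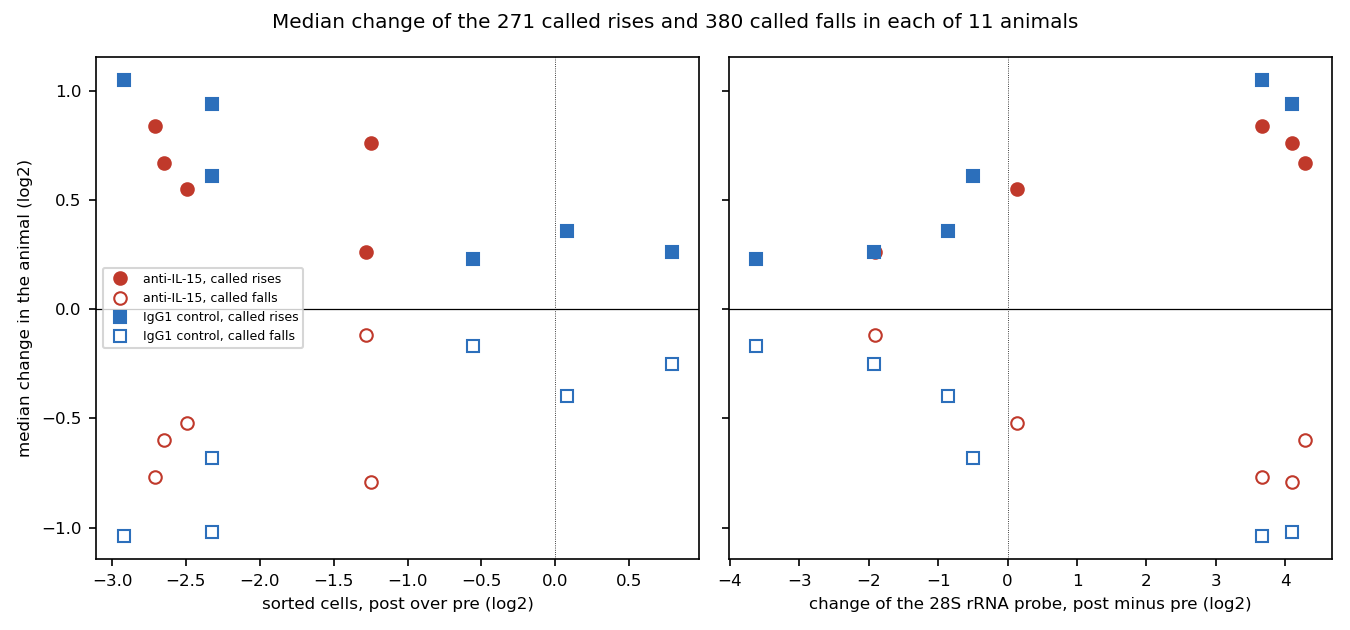
Median change (y axis, log2) of the 271 called rises (filled) and the 380 called falls (open) in each of the 11 animals, against the log2 ratio of sorted cells (left) and the change of the 28S rRNA probe (right). The 5 animals with a 28S change of 3.66 to 4.28 have medians of at least 0.67 among the rises. Every animal lies above 0 for rises and below 0 for falls, but the values of all 11 animals entered the calls, which favours this.

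The array of the anti-IL-15 animal with no earlier sample was not used for these calls. Set against the mean of the earlier arrays of its arm, 200 of 271 called rises (73.8%) were above it, against 47.5% of all genes. Likewise 280 of 380 called falls (73.7%) were below that mean, against 52.5% of all genes. The earlier arrays that make up this mean had entered the calls, which favours both shares. For the later arrays of the other 5 anti-IL-15 animals, whose values entered the calls, 83.3% to 97.4% of the called genes lay in the called direction against the earlier mean of the others. The unpaired array came from 45000 cells.

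Genes of the type I interferon response included 2 of the largest rises. Of 19 measured genes of this list, 4 rose (21.1%, against 2.95% of all genes) and 1 fell (5.26%, against 4.13%). The counts and shares of the lists below stand against these same shares of all genes. The median of the interferon list was 0.26 in the anti-IL-15 arm and 0.00 in the IgG1 arm, against -0.05 and -0.04 for all genes. ISG15, a ubiquitin-like protein that interferon induces, had levels of 8.26 to 11.85 (median 10.79) after treatment and 7.84 to 10.75 (median 8.58) before it. It rose in all 11 animals, and although the ranges of the arrays overlap, no animal had a lower level after treatment. The change was 1.38 (SE 0.17, limma adjusted p = 0.00033), made of 1.93 in the anti-IL-15 arm and 0.83 in the IgG1 arm, whose difference did not pass the test (1.10, adjusted p = 0.346). IFI27, a small mitochondrial interferon-induced protein, rose by 1.36 (SE 0.17, limma adjusted p = 0.00033), with 2.23 in the anti-IL-15 arm and 0.50 in the IgG1 arm, and in 10 of 11 animals. BST2, the tethering protein that holds budding virus at the cell surface, rose by 0.57. TRIM22, another interferon-induced antiviral gene, fell by 0.86 in 10 of 11 animals, with a level of 5.06 to 5.99 after treatment and 5.36 to 7.81 before it. The list thus held changes in both directions.

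Histone and cell-division genes rose in part. Of 15 histone genes measured, 5 rose and 0 fell (33.3% higher, against 2.95% of all genes), with list medians of 0.60 in the anti-IL-15 arm and 0.06 in the IgG1 arm. H4C12 had levels of 6.85 to 9.46 (median 8.53) after treatment and 6.16 to 8.45 (median 7.13) before it, and rose in every one of the 11 animals by 0.35 to 1.82. Its change was 1.23 (SE 0.16, limma adjusted p = 0.00058). H4C3 rose by 0.57 and H4C9 by 0.97, and since histone H4 genes have near-identical coding sequences, the probes may share signal. H2AJ, a replication-independent variant of histone H2A, rose by 0.56.

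Of 25 mitosis and kinetochore genes, 5 rose (20.0%, against 2.95% of all genes) and 0 fell, 4 of the 5 with the same sign in both arms. CDC20, the activator of the anaphase-promoting complex, had the largest called rise of any gene tested, with levels of 5.07 to 9.54 (median 7.10) after treatment and 4.56 to 8.44 (median 5.72) before it. It rose by 1.53 (SE 0.27, limma adjusted p = 0.00579), by 2.09 in the anti-IL-15 arm and 0.97 in the IgG1 arm, and the 2 IgG1 animals with no fewer cells averaged -0.27. Before treatment CDC20 was detected on 3 of 6 IgG1 arrays, so the size of its IgG1 rise and its rank as the largest are uncertain. The kinetochore gene CENPW rose by 0.99, as 1.59 in the anti-IL-15 arm and 0.40 in the IgG1 arm. SKA2, part of the complex that ties kinetochores to spindle fibres, rose in all 11 animals by 0.86, by 0.88 in the anti-IL-15 arm and 0.83 in the IgG1 arm. Before treatment it was detected on 1 of 6 IgG1 arrays and 5 of 5 anti-IL-15 arrays. The size of its IgG1 rise, measured from near the limit of detection, is therefore uncertain. Among 19 replication genes, 2 rose (10.5%, against 2.95% of all genes) and 0 fell. TYMS, which makes thymidylate for DNA synthesis, rose by 0.89, and GINS2, a subunit of the replicative helicase, by 0.71. Their changes in the anti-IL-15 arm were 1.53 and 1.22, against 0.25 and 0.21 in the IgG1 arm, and neither difference between the arms passed the test (adjusted p = 0.294 for each in limma).

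Genes for making protein and for respiration also held rises. Of 62 genes for proteins of the cytosolic ribosome, 14 rose (22.6%) and 1 fell, with a list median of 0.13. Of the ribosomal genes named here, RPL35 rose by 0.87 (0.73 in the anti-IL-15 arm and 1.02 in the IgG1 arm). RPS15A rose in all 11 animals by 0.82, with levels of 7.67 to 9.54 after treatment and 7.26 to 8.75 before it, and RPS28 rose by 0.82 in 10 of them. The ribosomal rises differed in size between the sets of animals: RPL35 averaged 1.62 in the 5 animals with the higher 28S signal and 0.20 in the other 6, and RPS28 averaged 1.34 and 0.39. Of 20 small nucleolar RNAs, Cajal body RNAs and their host transcripts, 8 rose (40%) and 0 fell. These RNAs guide the chemical marking of ribosomal and spliceosomal RNA. SNORD104, a box C/D RNA, rose in all 11 animals by 1.12 (SE 0.18, limma adjusted p = 0.00306), with levels of 8.33 to 11.28 (median 9.63) after treatment and 7.58 to 9.63 (median 8.56) before it. SNHG6, a host transcript of small nucleolar RNA, rose in all 11 by 0.92. SCARNA9L rose by 1.5, by 0.93 in the anti-IL-15 arm and 2.08 in the IgG1 arm, and its close copy SCARNA9 by 1.01; the probes of the pair may share signal. SCARNA9 averaged 2.00 in the 5 animals with the higher 28S signal and 0.18 in the other 6, and SCARNA2, which rose by 0.81, averaged 1.49 and 0.17. SNORD104 and SNORD21 are not members of this list.

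Within mitochondria, rises came from the respiratory chain and the organelle's own ribosome. Of 28 complex I subunits measured, 8 rose (28.6%) and 0 fell, and 22 were above 0 in both arms. NDUFB7 rose by 1.23 (SE 0.22, limma adjusted p = 0.0053), with levels of 7.53 to 9.92 (median 9.12) after treatment and 6.78 to 8.93 (median 7.28) before it. NDUFA1 rose by 0.60 in all 11 animals, with 0.51 in the anti-IL-15 arm and 0.68 in the IgG1 arm. Of 28 subunits of complexes II to V, 8 rose and 0 fell. UQCRH, the hinge protein of complex III, rose by 0.88 in all 11 animals, with levels of 7.32 to 10.04 after treatment and 6.80 to 9.03 before it. A dimmer kept probe of UQCRH gave 0.03. Of 60 mitochondrial ribosomal protein genes, 6 rose (10.0%) and 1 fell. MRPS21 of the small subunit rose in all 11 by 1.15 (SE 0.20, limma adjusted p = 0.00482), and its 5 anti-IL-15 levels averaged 7.31 ± 0.11 after treatment and 6.26 ± 0.43 before it (SD). MRPL53 of the large subunit rose in all 11 by 0.97, and CHCHD1, a further component of that ribosome, by 0.80. For MRPL41, with a change of 0.97, the mean was 1.87 in the 5 animals with the higher 28S signal and 0.36 in the other 6.

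Among proteasome genes 5 of 33 rose (15.2%, against 2.95% of all genes) and 0 fell, with list medians of 0.27 in the anti-IL-15 arm and -0.01 in the IgG1 arm. PSME2, a subunit of the interferon-inducible activator of the proteasome, rose by 0.72, and the assembly factor POMP by 0.52. Of 19 glycolysis genes only SLC2A3, the glucose transporter GLUT3, rose (0.76, limma adjusted p = 0.0102), with 0.97 in the anti-IL-15 arm and 0.55 in the IgG1 arm, and the list median was 0.03. This 1 gene made up 5.26% of the list, against 2.95% of all genes. The other rises among the 15 largest seen in all 11 animals were of varied function. MYL6B, a myosin light chain, rose by 1.19, with levels of 7.22 to 10.78 (median 9.27) after treatment and 6.18 to 9.24 (median 7.83) before it. LSM6, a core protein of complexes that act on U6 RNA and on messenger RNA decay, rose by 0.78, TRAPPC6A, a subunit of a vesicle-tethering complex, by 0.76, and DYNLT2B, a dynein light chain, by 0.77. VSIG8, an immunoglobulin-domain protein, rose by 0.85.

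Lists of early-response and stress genes moved less uniformly. Of 26 immediate early genes, 21 had a change above 0, but only 2 rose (7.69%, against 2.95% of all genes), and 1 fell (3.85%, against 4.13%). IER2, an immediate early transcriptional regulator, had levels of 7.41 to 8.97 (median 8.40) after treatment and 4.82 to 8.40 (median 7.41) before it. It rose by 1.44 (SE 0.25, limma adjusted p = 0.00482), by 0.75 in the anti-IL-15 arm and 2.13 in the IgG1 arm, and in 10 of 11 animals. IER3 rose by 0.77. MYADM, a myeloid-associated membrane protein placed on this list, fell by 0.44. Among 16 heat shock and unfolded protein genes, 3 fell and 1 rose: the chaperones HSPA8 and HSPH1 and the transcription factor XBP1 fell by 0.38, 0.61 and 0.56, and ATF4, the factor of the integrated stress response, rose by 0.66. The other kept probe of HSPA8 gave -0.07, that of XBP1 gave -0.35, and those of ATF4 gave 0.35 and 0.05. ATF4 was detected on 6 of 11 arrays before treatment, so the size of its rise is uncertain. The calls of XBP1, HSPA8 and ATF4 were each lost when any of 9, 8 and 8 of the 11 animals was left out.

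**Figure D3:**
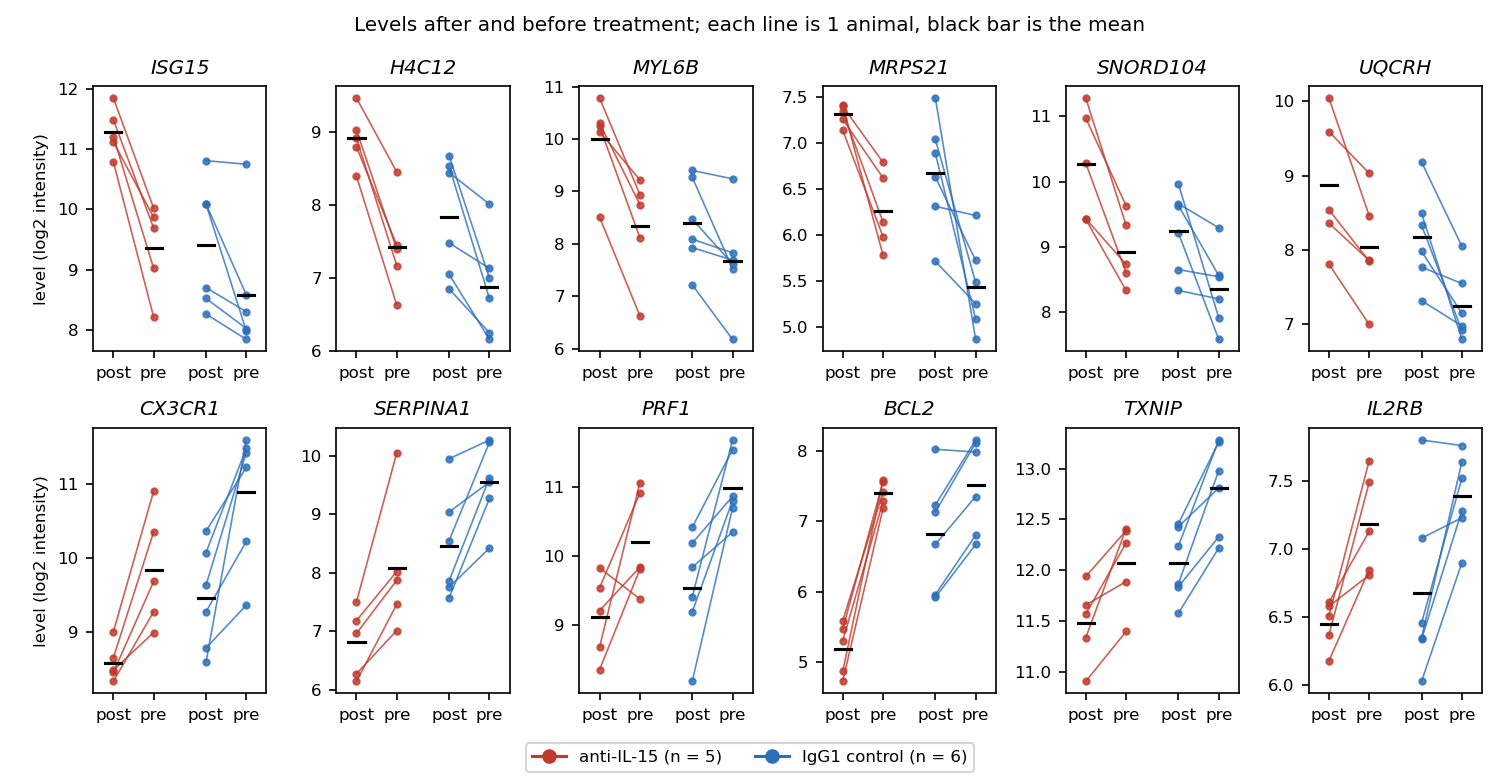
Levels (log2 intensity) after and before treatment for 6 genes that rose (top) and 6 that fell (bottom), with 1 line for each of 5 anti-IL-15 and 6 IgG1 animals and black bars at the group means. ISG15, H4C12, MYL6B, MRPS21, SNORD104 and UQCRH are higher after treatment in every animal, and CX3CR1, SERPINA1 and TXNIP are lower in every animal, while PRF1, BCL2 and IL2RB are lower in 10 of 11.

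A few genes of circulating cytotoxic effector cells fell, while most of those measured did not pass. CX3CR1, the fractalkine receptor that marks the most cytotoxic memory cells of blood, had levels of 8.33 to 10.36 (median 8.78) after treatment and 8.99 to 11.59 (median 10.35) before it. It fell in all 11 animals, by 0.51 at least and 3.00 at most, with a mean change of -1.34 (SE 0.18, limma adjusted p = 0.00069). The arms were close, -1.26 for anti-IL-15 and -1.43 for IgG1, and the interval of their difference ran from -0.59 to 0.94 at the 95% level. A further probe of CX3CR1 had a change of -0.92. PRF1, the pore-forming protein of the granules, had levels of 8.18 to 10.42 (median 9.41) after treatment and 9.38 to 11.69 (median 10.81) before it. It fell by 1.27 (SE 0.21, limma adjusted p = 0.00438), with -1.08 in the anti-IL-15 arm and -1.46 in the IgG1 arm, and averaged -2.07 in the 5 animals with the higher 28S signal and -0.54 in the other 6. Of 19 measured cytotoxic genes, 4 fell (21.1%, against 4.13% of all genes) and 0 rose, and the list median was 0.00 in the anti-IL-15 arm and -0.27 in the IgG1 arm. SRGN, the proteoglycan that packs the granules, fell by 0.45 in all 11 animals, and LAMP1, a lysosome and granule membrane protein, fell by 0.67. The chemokine CCL5 fell by 0.53 in the average, but its change was 0.02 in the anti-IL-15 arm and -1.09 in the IgG1 arm, and its other kept probe had a change of 0.35. GZMB, the protease of the same granules, had a change of -0.12 (limma adjusted p = 0.73), and NKG7 of -0.49 (adjusted p = 0.0912).

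Of 7 measured markers of natural killer cells, 4 fell (57.1%) and 0 rose: KLRF1 by 0.96, KIR3DL1 by 0.89, KIR3DL2 by 0.73 and KIR2DL1 by 0.50. KLRF1, an activating receptor of NK cells that some CD8+ T cells also carry, had levels of 5.16 to 9.27 after treatment and 7.49 to 9.55 before it. The KIR genes are a family of near-identical copies that differ between macaque and human, so these probes cannot be assigned to a single macaque gene. The summed level of the 7 markers was 9.67 to 11.79 (median 10.43) after treatment and 10.27 to 11.28 (median 10.59) before it. NCAM1, a marker of human NK cells, was detected on 8 of 23 arrays. Their part in the falls of PRF1 and CX3CR1 was not tested. None of the measured markers of B cells (5), monocytes and dendritic cells (8), neutrophils (3), platelets and red cells (8), CD4 and regulatory T cells (4) or gamma delta and MAIT cells (4) was called in limma. Of all genes 7.08% were called, so with so few markers the lack of calls does not show that other cells stayed level. The summed level of the B-cell markers was 7.71 to 8.90 (median 8.39) after treatment and 7.51 to 8.83 (median 7.89) before it. That of the monocyte and dendritic cell markers was 11.09 to 12.09 (median 11.40) after treatment and 10.80 to 11.75 (median 11.15) before it. The platelet and red cell markers summed to 10.37 to 14.95 (median 12.15) after treatment and 10.11 to 14.73 (median 12.74) before it.

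On the T-cell side, CD8A fell by 0.58 (SE 0.10, limma adjusted p = 0.00508), with levels of 12.13 to 13.11 (median 12.37) after treatment and 12.30 to 13.58 (median 13.19) before it. It is the alpha chain of the co-receptor by which the cells were sorted, and its other kept probes gave -0.49 and 0.16. CD2, an adhesion molecule of T and NK cells, fell by 0.59. These were 2 of 17 measured genes of the T-cell receptor and CD8 list (11.8% lower, against 4.13% of all genes), of which 0 rose. CD8B, detected on few arrays, had a change of -0.22 (adjusted p = 0.355). Of 13 homing genes, CX3CR1 and ADGRG1, a surface receptor of cytotoxic lymphocytes, fell, the second by 0.48. ADGRG1 was detected on none of the 5 anti-IL-15 arrays after treatment, so that its fall in that arm is at least 1.01-fold. None of 10 measured naive and central memory genes was called on its brightest probe, against 7.08% of all genes. For LTB, a member of this list, that probe gave 0.11. A dimmer kept probe of LTB gave 0.62 (SE 0.15), with 0.44 in the anti-IL-15 arm and 0.80 in the IgG1 arm.

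Transcription factors of effector cells split. RUNX3, which directs the CD8+ and cytotoxic programme, fell by 0.71 (SE 0.12, limma adjusted p = 0.00435), with levels of 11.16 to 12.41 after treatment and 11.96 to 13.23 before it, although a dimmer probe gave 0.32. KLF2, which maintains quiescence and exit from lymphoid tissue, fell by 0.37. ZNF683, known as HOBIT, a factor of resident and effector lymphocytes, rose by 0.77, and BATF, an AP-1 family factor of activated T cells, rose by 0.45. Of 16 measured quiescence genes 4 fell (25.0%) and 0 rose. TXNIP, a thioredoxin-binding inhibitor of glucose uptake, fell in all 11 animals by 0.67 (SE 0.09, limma adjusted p = 0.00073), with levels of 10.91 to 12.46 (median 11.84) after treatment and 11.40 to 13.28 (median 12.39) before it. TSC22D3, a glucocorticoid-induced gene also called GILZ, fell in all 11 by 0.52, and RBL2, the pocket protein p130 that restrains the cell cycle, fell by 0.85.

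Among genes of IL-15 signalling and survival, IL2RB, BCL2 and BCL2L1 fell in the average over the arms. None of the 3 passed in the IgG1 arm alone (limma adjusted p = 0.0693 for IL2RB, 0.0616 for BCL2 and 0.105 for BCL2L1). In the anti-IL-15 arm alone BCL2 and BCL2L1 passed (limma adjusted p = 2.0e-05 and 0.0241) and IL2RB did not (0.142). IL2RB, the receptor chain that IL-15 and IL-2 share, had levels of 6.03 to 7.80 (median 6.46) after treatment and 6.81 to 7.76 (median 7.28) before it. Its change was -0.73 in the anti-IL-15 arm and -0.71 in the IgG1 arm, with an average of -0.72 (SE 0.16, limma adjusted p = 0.0145), and it was lower in 10 of 11 animals. IL2RG, the common gamma chain, had a change of -0.48 (adjusted p = 0.143). STAT6, the transducer of IL-4, fell by 0.66. Of 18 genes of the cytokine list 2 fell (11.1%, against 4.13% of all genes) while 0 rose (against 2.95%). BCL2 had levels of 4.73 to 8.02 (median 5.92) after treatment and 6.67 to 8.15 (median 7.41) before it. It fell by 1.45 in the average (SE 0.15, limma adjusted p = 3.5e-05). The change was -2.21 in the anti-IL-15 arm, where the animals ran from -2.7 to -1.82. In the IgG1 arm it was -0.69, and the animals ran from -0.98 to 0.04. After treatment BCL2 was detected on 3 of 5 anti-IL-15 arrays and 6 of 6 IgG1 arrays, so the size of its fall in the anti-IL-15 arm is uncertain. Its 3 other kept probes gave averages of -0.61, -0.40 and -0.10, and their changes in the IgG1 arm were 0.22, -0.31 and 0.16, so the fall of BCL2 in that arm was not seen by every probe. On the brightest probe the animals of the arms did not overlap for BCL2, but the difference of -1.52 did not pass over all genes (adjusted p = 0.105). BCL2L1, which encodes the related protein BCL-XL, fell by 0.81, with a dimmer probe at 0.21. CCND2, the cyclin D2 gene that STAT5 induces, fell by 0.64, while SOCS1, the feedback inhibitor of JAK kinases, rose by 0.50. Of 20 measured STAT5 feedback and target genes, 3 fell (15%, against 4.13% of all genes) and 2 rose (10%, against 2.95%). Of 16 genes of the BCL2 family, death receptors and caspases, BCL2 and BCL2L1 fell and 0 rose. Of 14 NK-type receptors and adaptors, KLRF1 alone fell (7.14%, against 4.13% of all genes) and 0 rose (against 2.95%). Of 17 MHC class II, costimulatory and inhibitory genes 0 were called in limma, against 7.08% of all genes. RAB27B, a GTPase of granule release, fell by 1.09, with -1.93 in the anti-IL-15 arm and -0.26 in the IgG1 arm, and this difference also missed the threshold (-1.67, adjusted p = 0.105).

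**Figure D4:**
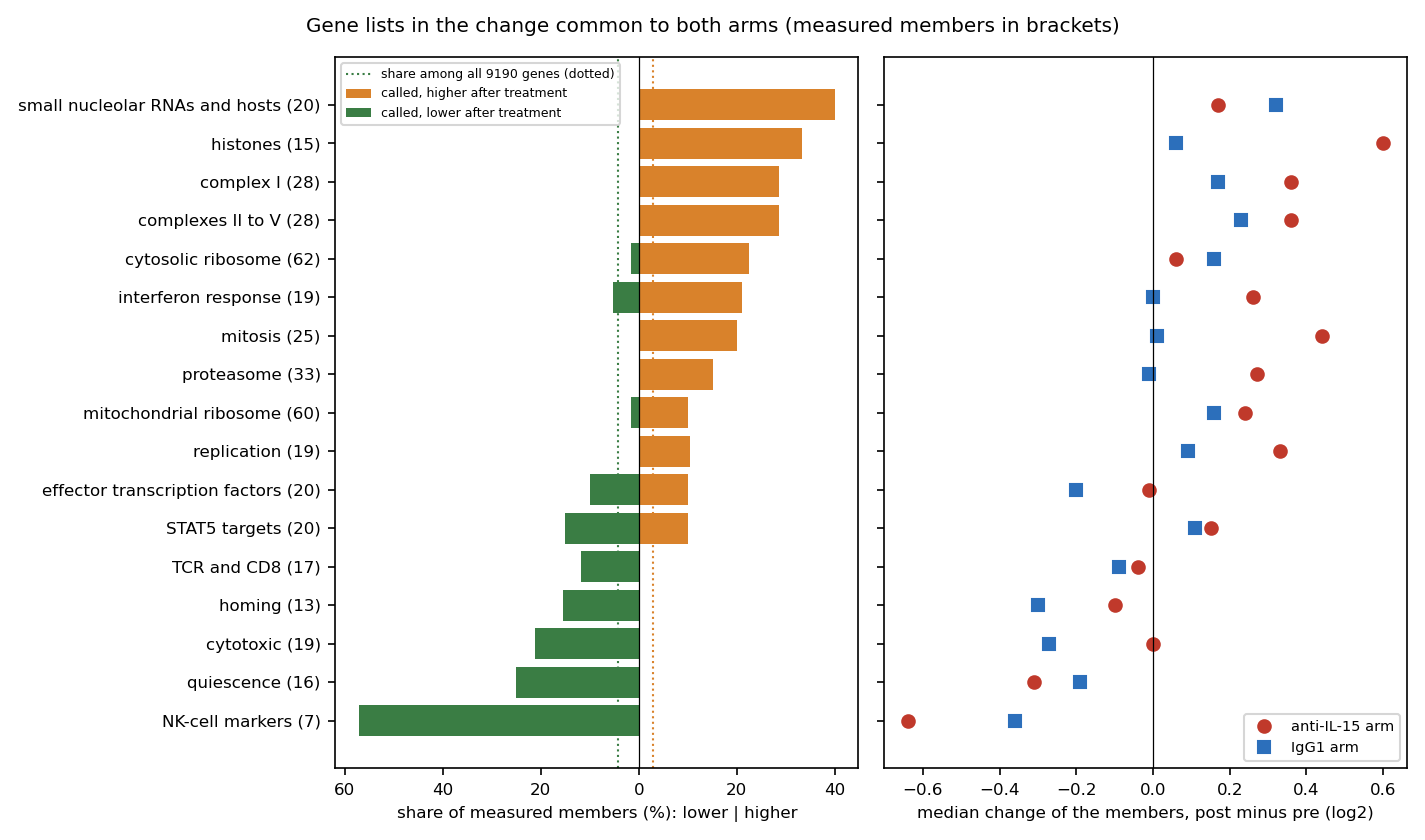
Share of the measured members of 17 gene lists that were called higher (right) or lower (left) in the average over both arms, with dotted lines at the shares among all 9190 genes (2.95% and 4.13%), and the median change of each list in the anti-IL-15 arm (circles) and the IgG1 arm (squares). Small nucleolar RNAs and hosts have the highest share of rises, 40%, and NK-cell markers the highest share of falls, 57.1%.

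The remaining falls seen in all 11 animals were of genes with other roles. SERPINA1, the protease inhibitor alpha-1-antitrypsin, had levels of 6.14 to 9.95 (median 7.57) after treatment and 7.01 to 10.27 (median 9.27) before it. It fell by 1.19 (SE 0.19, limma adjusted p = 0.00273), with -1.27 in the anti-IL-15 arm and -1.11 in the IgG1 arm. IGIP, a small secreted protein named for inducing IgA, fell by 1.12. DCAF16 and DCAF7, receptors of a ubiquitin ligase, fell by 0.82 each, the ligase RNF144A by 0.81 and the F-box gene FBXO8 by 0.75. The deubiquitinase USP21 was called lower, but it was detected on 3 of 11 arrays after treatment and 10 of 11 before it. It was detected on 0 of 5 anti-IL-15 arrays after treatment, so that its fall in that arm is at least 1.43-fold. FKBP1A, the protein that binds tacrolimus and rapamycin, fell by 0.76 on its brightest probe, but its 2 dimmer kept probes gave -0.01 and -0.10. PGD, an enzyme of the pentose phosphate route, fell by 0.73, and CASC3, a component of the exon junction complex, by 0.71. Of 28 actin, myosin and tubulin genes, 3 fell (10.7%, against 4.13% of all genes) and 2 rose (7.14%, against 2.95%). The falls included the myosin heavy chain gene MYH9 (-0.75) and the actin-severing factor CFL1 (-0.43). Of 42 splicing genes, 2 rose and 2 fell, 4.76% each way, close to the 2.95% and 4.13% of all genes. Among them were SRSF2 at -0.49 and the Sm protein gene SNRPG at 0.36.

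Of the 102 called genes named by rule, 57 passed the threshold whichever of the 11 animals was left out. Among these were BCL2, with an average of -1.52 to -1.39 over the left-out animals, CX3CR1 with -1.44 to -1.19, ISG15 with 1.25 to 1.47, H4C12 with 1.14 to 1.29 and TXNIP with -0.71 to -0.61. The other 45 lost the call when at least 1 of the animals was left out. Among those described above, KLRF1 lost it with any of 4 animals, LAMP1 and CFL1 with any of 6, ADGRG1, KIR3DL2 and POMP with any of 7, and SOCS1 with any of 8.

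At the level of probes, 835 of 15744 passed the same test. Of 4612 kept probes to which the annotation gives no gene symbol, 213 were called (4.62%), 151 higher and 62 lower, and these are not named here.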

How the data were processed

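Total RNA of the sorted cells was hybridised to 23 Illumina bead arrays of human design. Per the labels' protocols, samples passing a quality threshold were brought to the same RNA input before amplification. The table deposited by the authors gives 1 unnormalised intensity per probe on a linear scale, and a detection p-value against the negative controls of the array, also deposited. A second deposited table holds log2 values, which the authors made by quantile normalisation without background subtraction as far as a match to the intensities shows; its direction follows from that match, no centring of genes was seen, and it served as an alternative. The submitters' processing notes name limma, with the version not given in the sources used here.

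Of 47230 probes, 9 with a value of 0 on some array were dropped. The neqc function of limma 3.58.1 (R 4.3.3) corrected background from controls inferred through the detection p, with an offset of 16, and quantile normalised the log2 values. The filter kept 15744 probes, those with detection p under 0.05 on 5 or more of the 23 arrays (11131 with 1 symbol, 1 with several, 4612 with none), and the brightest probe stood for a gene (1660 genes had several), leaving 9190. All levels are log2 intensities and can be compared between arrays for a gene, but not between genes.

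The fit held each animal as a block and each arm's change, with empirical Bayes moderation along a variance trend. Adjusted p-values (Benjamini-Hochberg) cover all 9190 genes. Array and sample measures were tested by exact sign flips (2048). Animals are the replicates. The donor label pairs the arrays; deviations of arrays of an animal from their group means correlated by 0.05 to 0.51 (median 0.31, over 0.1 in 10 of 11 pairs), against a median of -0.06 between animals. Slide and scan date were not used here.

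On simulated data with 200 of 9190 genes changed in both arms, the fit of the shared change recovered 49.3% at 1.5-fold, 94.0% at 2-fold and 100% at 4-fold. Named genes are the 15 largest rises and 15 largest falls among calls with the same direction in all 11 animals, up to 4 called members of each list with the same sign in both arms (failing that, the 2 with the smallest p), a set of 16 genes, and the 5 calls with the smallest p for the difference of the arms. Of the genes that were not called over all 11 animals, changes are given only for those of the set of 16, for SNORD21 and for LTB. Members, lists and tests were chosen with earlier results of these data known. The alternatives cover background, scaling, filter, block, covariates, weights, probe choice and leaving out animals.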

Additional observations from a re-analysis of the deposited data

Results flagged for a closer look

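The within-animal changes of 107 named genes and of cell number and 28S signal were screened arm by arm for a single animal far from the others, in 218 sets, of which chance marks about 1 in 20; 10 were marked. In the anti-IL-15 arm, animal 6 stood apart for HSPA8 (0.35, others -0.47 to -0.31), IGIP (-0.19, others -2.19 to -1.66) and SRSF2 (0.39, others -0.94 to -0.64). Animal 4 stood apart there for SNRPG (0.69, others 0.33 to 0.43) and SRGN (-0.93, others -0.32 to -0.09), animal 1 for TM6SF1 (-1.92, others -0.92 to -0.59) and animal 5 for VSIG8 (2.20, others 0.55 to 0.93). In the IgG1 arm, animal 5 stood apart for BCL2 (0.04, others -0.98 to -0.68), animal 2 for SNHG6 (2.25, others 0.65 to 1.21) and animal 1 for VSIG8 (1.96, others 0.14 to 0.78).

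HLA-DRA changed differently in the arms, by 2.10 as anti-IL-15 minus IgG1 (limma adjusted p = 0.00632). The later array of the animal without an earlier one lay above the earlier mean of its arm for 73.8% of the called rises, against 47.5% of all genes. The arrays behind that mean had entered the calls, which favours this share.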

How the results depend on the processing

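The count of 651 called genes (646 with the same sign in both arms) lay within 1.5 times under an offset of 50, no background correction, 75th percentile scaling, the authors' deposited table, detection on all 23 arrays, animals weighted equally, no variance trend and the mean of the kept probes, with 540 to 877 calls. It was 284 (282 with the same sign) without a detection filter, where 20044 genes were tested, and 150 (150) with no replicate block. Taking the animal as a random replicate block over all 23 arrays gave 428 (427). With the replicate block and the 28S probe as a covariate it was 310 (302), and with the replicate block and log2 cell number it was 0 (0). Leaving out 1 animal gave 163 to 938 calls, 163 to 932 of them with the same sign in both arms, and all 651 calls kept their sign each time. Settings chosen after seeing the data gave 6 (6) in the 6 animals with a 28S change under 2, 253 higher and 372 lower without the 2 animals with no fewer cells, and 1202 (1193) without anti-IL-15 animal 6 and IgG1 animal 3. The change in cell number ran from -1.84 to -1.47 as each animal was left out.

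With the cell number covariate, signs turned for COX6A1 (-0.01), ATP5MC2 (-0.01), CENPM (-0.02), POMP (-0.02), MRPL41 (-0.08), SCARNA9 (-0.16), RPS26 (-0.19), CFL1 (0.09), HNRNPD (0.08) and IL2RG (0.37), with adjusted p from 0.992 to 0.998. Among genes that were not called, HLA-DRA was -0.02 with animals weighted equally and -0.05 without the animals with no fewer cells. Also not called, IL2RG was 0.05 in the animals with a 28S change under 2, and GZMB was 0.04 without anti-IL-15 animal 6 and IgG1 animal 3. Leaving out 1 animal, HLA-DRA ran from -0.03 to 0.15 and GZMB from -0.25 to 0.00. The cause of these shifts was not tested. The number of animals limits the precision of every value.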
